A study of Mus musculus with 6 samples.

Results

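H3K4me3 promoter peaks were compared between mutant STHdhQ111 cells treated with cyproheptadine and the same cells given vehicle control, a list named Q111SST. The mark is a trimethyl group on lysine 4 of histone H3. Both lists were chosen by their labels from the 6 peak lists of the series, and they held 33721 and 40406 of its 227418 peaks. A promoter was called marked where a peak lay within 1 kb of an annotated transcript start of a protein-coding gene. Of 21842 such genes, 12567 were marked in Q111SST and 11918 with cyproheptadine, and the 11857 promoters marked in both are described here.

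STHdhQ111 cells are an immortalised mouse striatal progenitor line on a C57BL/6 background that carries a polyglutamine-expanded huntingtin gene, the mutation of Huntington's disease. Both groups were STHdhQ111 cells kept for 24 hours in medium without serum, one with vehicle and one with 10 uM cyproheptadine. The other 4 lists came from wild-type STHdhQ7 cells with vehicle, named Q7SST, and from STHdhQ111 cells given 10 uM loxapine, DKI (a diacylglycerol kinase inhibitor) or meclizine. All 4 compounds share the Q111SST list as their control, so their values are only set side by side. The study describes triplicates for RNA, metabolite and protein profiling, and its ChIP-seq method gives no number of replicates. Whether replicates were pooled is not given in the sources used here, and each condition has 1 list. No spread between replicates could therefore be measured and no test was made.

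H3K4me3 is laid down at the starts of active genes by the Set1 and MLL methyltransferases and is removed by the Kdm5 demethylases. The mark is strong at promoters rich in CpG, usually lies on both sides of the start, and extends further into the gene at some highly used promoters. Cyproheptadine is an antihistamine that blocks the histamine H1 receptor, several serotonin receptors and muscarinic receptors.

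Promoter strength was taken from the score that the authors gave each peak. The highest score at a promoter was expressed as its percentile among all peaks of its own list, so that 100 is the strongest peak of the list. Promoter width is the summed length of the peaks that touch the window of 1 kb around a start. A difference of 10 percentile points in strength, or of 1.5 times in width, was used as a fixed size for calls in place of a test. Whether the score is a peak's maximum or its mean over the peak is not given in the sources used here, and reads per library are unknown. Intervals are 95% intervals that cover counting error only, and genes are not independent, since the 11857 promoters held 10625 distinct strongest peaks.

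The lists were checked against markers of the labelled cells. Of 10 markers of striatal neural progenitors, 8 were marked in Q111SST and 7 with cyproheptadine, and Nes, Msi1 and Bcl11b were not marked with cyproheptadine. Of 10 markers of mature striatal neurons, 4 were marked in Q111SST and 1 with cyproheptadine. All 6 mesenchymal markers were marked in both lists, at percentiles of 68.5 to 87.8 in Q111SST and 39.2 to 70.9 with cyproheptadine. Of 5 markers each for astrocytes, endothelium and microglia, 2 were marked in Q111SST for each cell type, and 2, 1 and 1 with cyproheptadine. None of 5 oligodendrocyte markers and none of 7 markers of liver, muscle and blood were marked in either list.

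Most strong Q111SST peaks were found with cyproheptadine and many weak ones were not. Of the Q111SST peaks, 71.9% were found with cyproheptadine by at least 1 bp (95% interval 71.5 to 72.3%). In 5 classes of equal size and rising strength, 26.8%, 52.8%, 81.4%, 97.9% and 99.9% of the Q111SST peaks were found. Peaks within 1 kb of a coding start were found at 92.5%, those elsewhere in coding genes at 61.5% and those outside coding genes at 63.1%. In the other direction, 87.96% of the cyproheptadine peaks were found in Q111SST (87.6 to 88.3%), and near coding starts 99.1%. Peaks were narrower with cyproheptadine, with a median of 766 bp against 922 bp. The share of peaks of at least 3000 bp was 1.05% against 1.97%.

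At promoters marked in both lists, the median difference in percentile, cyproheptadine minus Q111SST, was -3.76 points (interval -3.94 to -3.58; quartiles -10.3 and 0.46). By at least 10 points, 3092 promoters were lower (26.1%) and 408 were higher (3.44%). A percentile depends on how many weak peaks a list holds, and the cyproheptadine list held fewer. With both lists cut to their strongest 33721 peaks, the median difference was -0.99 points, 1820 promoters were lower by at least 10 points (15.4%) and 1061 were higher (8.98%). Ranked only among the promoters marked in both lists, 2571 were lower and 2480 higher by as much, a split that such ranking centres near balance by construction. The excess of lower over higher promoters was smaller in lists of equal size. Against the same Q111SST list the median difference was -1.05 points in Q7SST, where 12.9% of promoters were lower and 8.72% higher by at least 10 points. Loxapine stood at -0.37 points, with 9.58% lower and 6.94% higher. For DKI the median was -6.62 points, with 38.9% lower and 3.51% higher. Meclizine stood at -1.55 points, with 10% lower and 4.07% higher.

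Promoters were narrower with cyproheptadine. The median width ratio was 0.881, or -0.18 on the log2 scale (interval -0.187 to -0.178), and -0.18 with lists of equal size. Only 1450 promoters (12.2%) were wider at all, 52 (0.439%) were wider by at least 1.5 times and 1849 (15.6%) were narrower by as much. In lists of equal size 0.372% were wider by that much. Side by side, 39.6% of promoters were wider than in Q111SST in Q7SST, 43.7% with loxapine, 7.09% with DKI and 24.7% with meclizine. Past 1.5 times, 5.18% were wider and 5.88% narrower in Q7SST, 1.9% and 6.24% with loxapine, 0.661% and 18.7% with DKI, and 2.43% and 4.02% with meclizine. Thus the cyproheptadine and DKI lists were the ones where few promoters were wider. They were also the shortest lists, with 33721 and 30758 peaks. Q111SST held 40406, Q7SST 38392, loxapine 45564 and meclizine 38577. The part of list size in these differences of width and percentile was not tested.

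Narrowing was seen on both sides of the start. For 7784 genes whose start was covered by 1 peak in both lists, the peak reached 610 bp upstream in Q111SST and 521 bp with cyproheptadine, as medians. Downstream reach was 1207 bp and 1073.5 bp. The median difference per gene was -53 bp upstream (-55 to -50) and -95 bp downstream (-98 to -91). The downstream edge drew back by at least 500 bp at 457 genes and moved out by as much at 47, against 114 and 20 for the upstream edge.

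Losses fell on weak promoters, and narrowing was larger there but was seen at strong ones too. Of promoters between percentiles 0 and 10 of Q111SST, 88.8% were not marked with cyproheptadine, against 19.7% between 40 and 50 and 0.11% above 90. Among promoters marked in both lists, the median difference was -11.7 points between percentiles 30 and 40, -8.61 between 60 and 70 and -2.15 above 90. With lists of equal size these medians were 1.24, -1.75 and -1.29. The larger loss of rank between percentiles 30 and 40 was thus not seen there. Weaker promoters showed no such loss in the full lists, but few of them were marked in both. Their medians were 6.66 points below percentile 10 (17 promoters), 1.52 between 10 and 20 (33) and -0.29 between 20 and 30 (92). With lists of equal size the medians were 17.6 between 10 and 20 and 14.5 between 20 and 30. The median width ratio was 0.52 between 30 and 40, 0.832 between 60 and 70 and 0.897 above 90. Below percentile 10 the ratio was 0.964. Of the 1849 promoters narrower by at least 1.5 times, 999 (54%) were above percentile 70 in Q111SST.

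**Figure D1:**
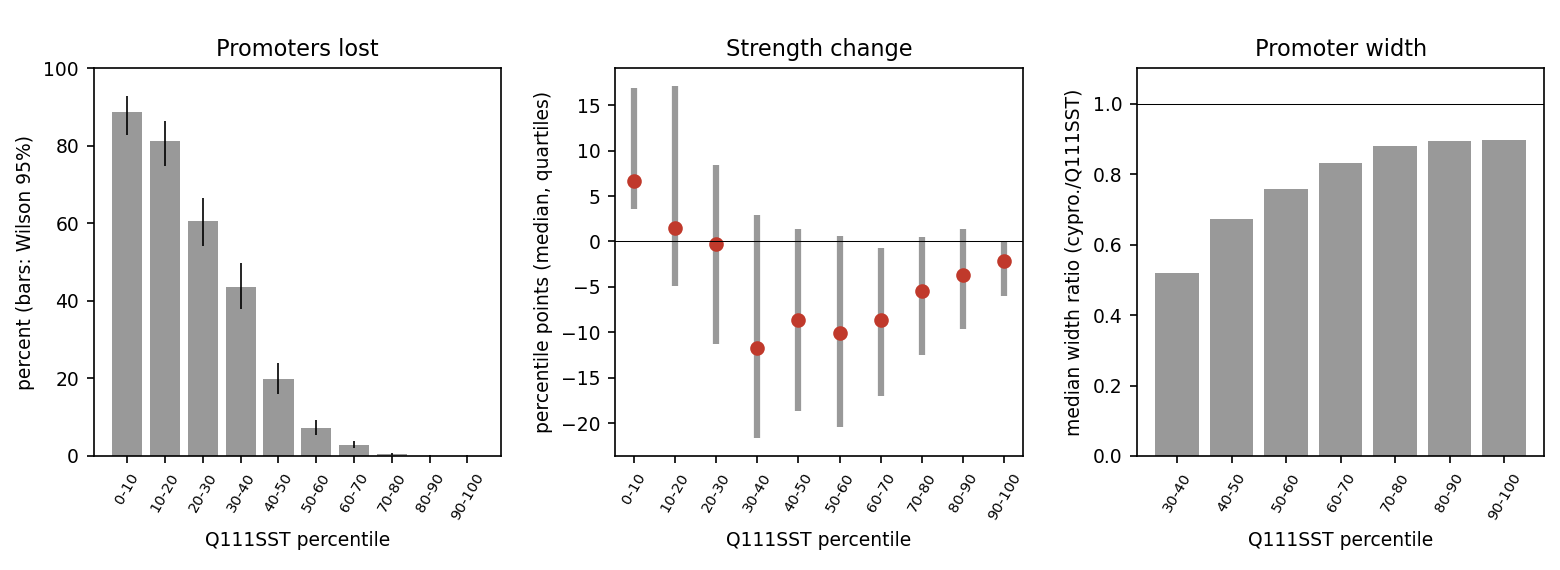
Promoters grouped by their strength in Q111SST (x axis, percentile): percent not marked with cyproheptadine with Wilson 95% intervals (left), percentile difference, cyproheptadine minus Q111SST, as median and quartiles (middle), and median width ratio (right, bins from percentile 30). Losses run from 88.8% in the weakest bin to 0.11% in the strongest, and the width ratio rises from 0.52 to 0.897.

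Gains in rank and changes of peak width were set side by side. Strongest peaks overlapped between the lists at 11639 promoters, of which 87.2% had a narrower peak with cyproheptadine and 15.4% one narrower by at least 1.5 times. Of the 398 among them that were higher by at least 10 points, 94.2% had a narrower peak and 62.3% one narrower by at least 1.5 times. Where the peak was narrower by 2 times or more (965 promoters) the median difference was 1.53 points (6.43 in lists of equal size), with 184 higher and 229 lower by at least 10 points. These promoters started weaker, at a median percentile of 67.6 in Q111SST against 85.7 where the peak narrowed by less than 1.5 times. Where it was wider by up to 1.5 times (1414 promoters) the median was -8.0 points (-4.86 in lists of equal size), with 17 higher and 597 lower. Where it was wider by 1.5 times or more (58 promoters), 8.62% were higher and 56.9% lower. By the bases covered by all peaks of a promoter, 52 promoters were wider by at least 1.5 times, and of these 67.3% had a lower percentile, against 72.3% of all promoters. The parts of width and of starting strength in these differences were not tested.

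**Figure D2:**
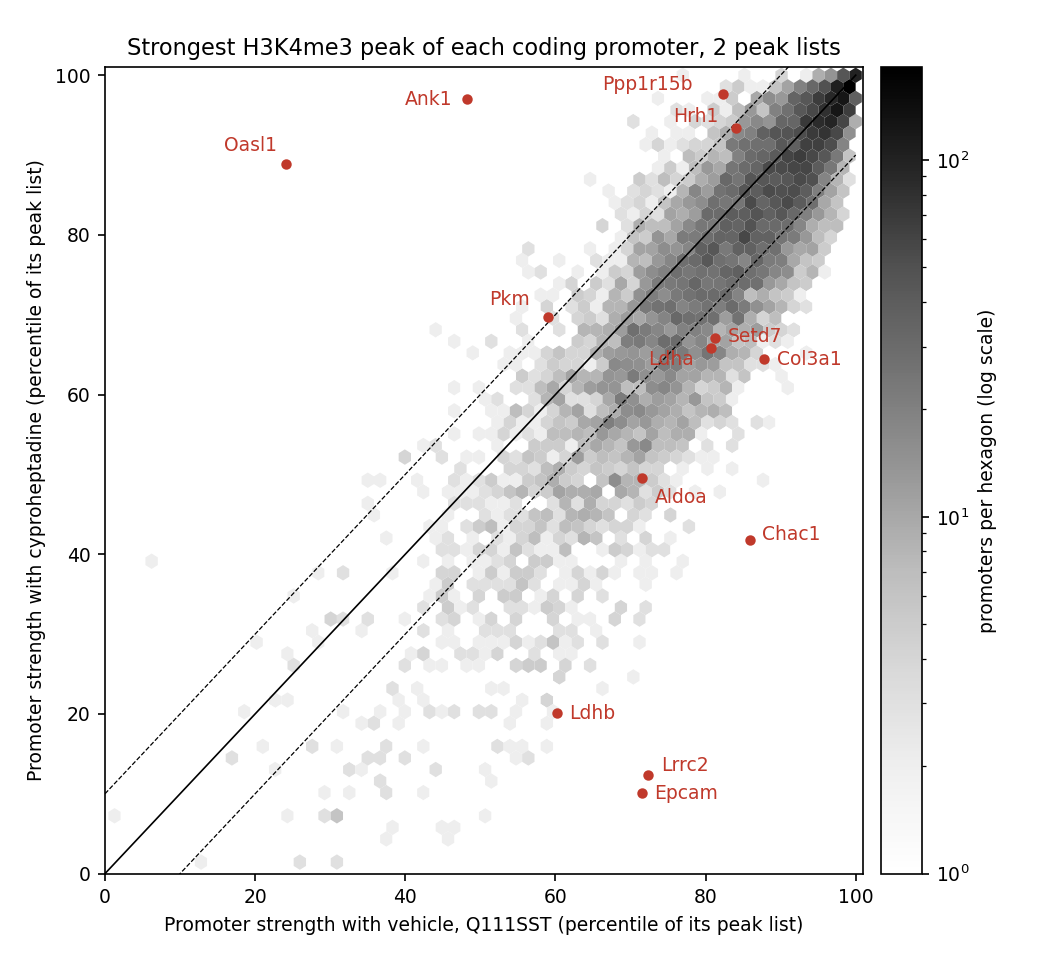
Strength of each promoter marked in both lists, as percentile in Q111SST (x axis) and with cyproheptadine (y axis); grey hexagons hold counts of promoters on a log scale, the solid line is equality, dashed lines are 10 points apart from it, and red points are named genes. More promoters lie below the lower dashed line (3092) than above the upper one (408).

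The largest gains and losses were taken among promoters at or above percentile 50 in either list whose strongest peaks overlapped. Gains were led by Oasl1, an interferon-induced relative of oligoadenylate synthetase. Its percentile was 24.2 in Q111SST and 88.9 with cyproheptadine. Meclizine stood at 21.8, loxapine at 21.1 and DKI at 76.3, and no peak was found there in Q7SST. The peak lay upstream of the gene, at chr5:114922327-114922967 with cyproheptadine. Ank1, which encodes the membrane skeleton protein ankyrin-1, stood at 48.2 in Q111SST and 97.01 with cyproheptadine, with 42.4 in Q7SST, 56.6 with loxapine, 86.9 with DKI and 26.3 with meclizine. Lrrc14b was at 29.3 and 79.1, and Usp2, a deubiquitinase, at 24.2 and 63.8. The other genes of the 10 largest gains were Fcrlb, Serpinb9b, Cgref1, Gm13271, Fam151b and Gtsf1, higher by 32.8 to 44.4 points. With a window of 5 kb the difference was 18.0 points at Ank1, 21.9 at Usp2, -2.26 at Cgref1 and -8.79 at Gm13271, and it stayed at 64.7 for Oasl1 and 49.8 for Lrrc14b. Ranked only among promoters marked in both lists, the 10 gains ran from 16.8 points at Serpinb9b to 88.5 at Ank1. Serpinb9b was not marked in both lists with a score of at least 20.

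The largest loss in rank was at Epcam, an epithelial adhesion protein, at 71.5 in Q111SST and 10.1 with cyproheptadine. Its percentile was 28.3 in Q7SST, 70.9 with loxapine, 33.5 with DKI and 47.1 with meclizine. Lrrc2 stood at 72.4 and 12.3, below each of the other lists (84.7 in Q7SST, 65.7 with loxapine, 45.1 with DKI and 79.5 with meclizine). Trdn, a protein of the calcium release complex in muscle, stood at 70.7 and 10.1, and Arhgap44, a GTPase-activating protein, at 63.7 and 3.8. Csf2ra, G430095P16Rik, Fam131a, Klk10, Cabyr and Tmem159 made up the rest, with differences of -59.85 to -53.3 points. Ranked only among promoters marked in both lists, the 10 losses were smaller, from -29.1 points at Cabyr to -10.2 at Klk10. All 10 promoters were narrow in Q111SST, between 384 bp at Epcam and 1180 bp at Arhgap44. With peaks of a score of at least 20 only, none of the 10 was marked in both lists. At Epcam the score was 80 in Q111SST and 14 with cyproheptadine, where the lowest score of the list was 10.

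Gene lists for pathways of this tissue and treatment were described by their median and by the share of members past 10 points, beside 26.1% lower and 3.44% higher over all promoters. Less the median of promoters of like strength in Q111SST, 1656 of all 11857 promoters were lower and 1161 higher by at least 10 points. These are the background for the counts beside promoters of like strength given below. Glycolysis had the lowest median of the lists with at least 10 promoters, and replication histones the highest.

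**Figure D3:**
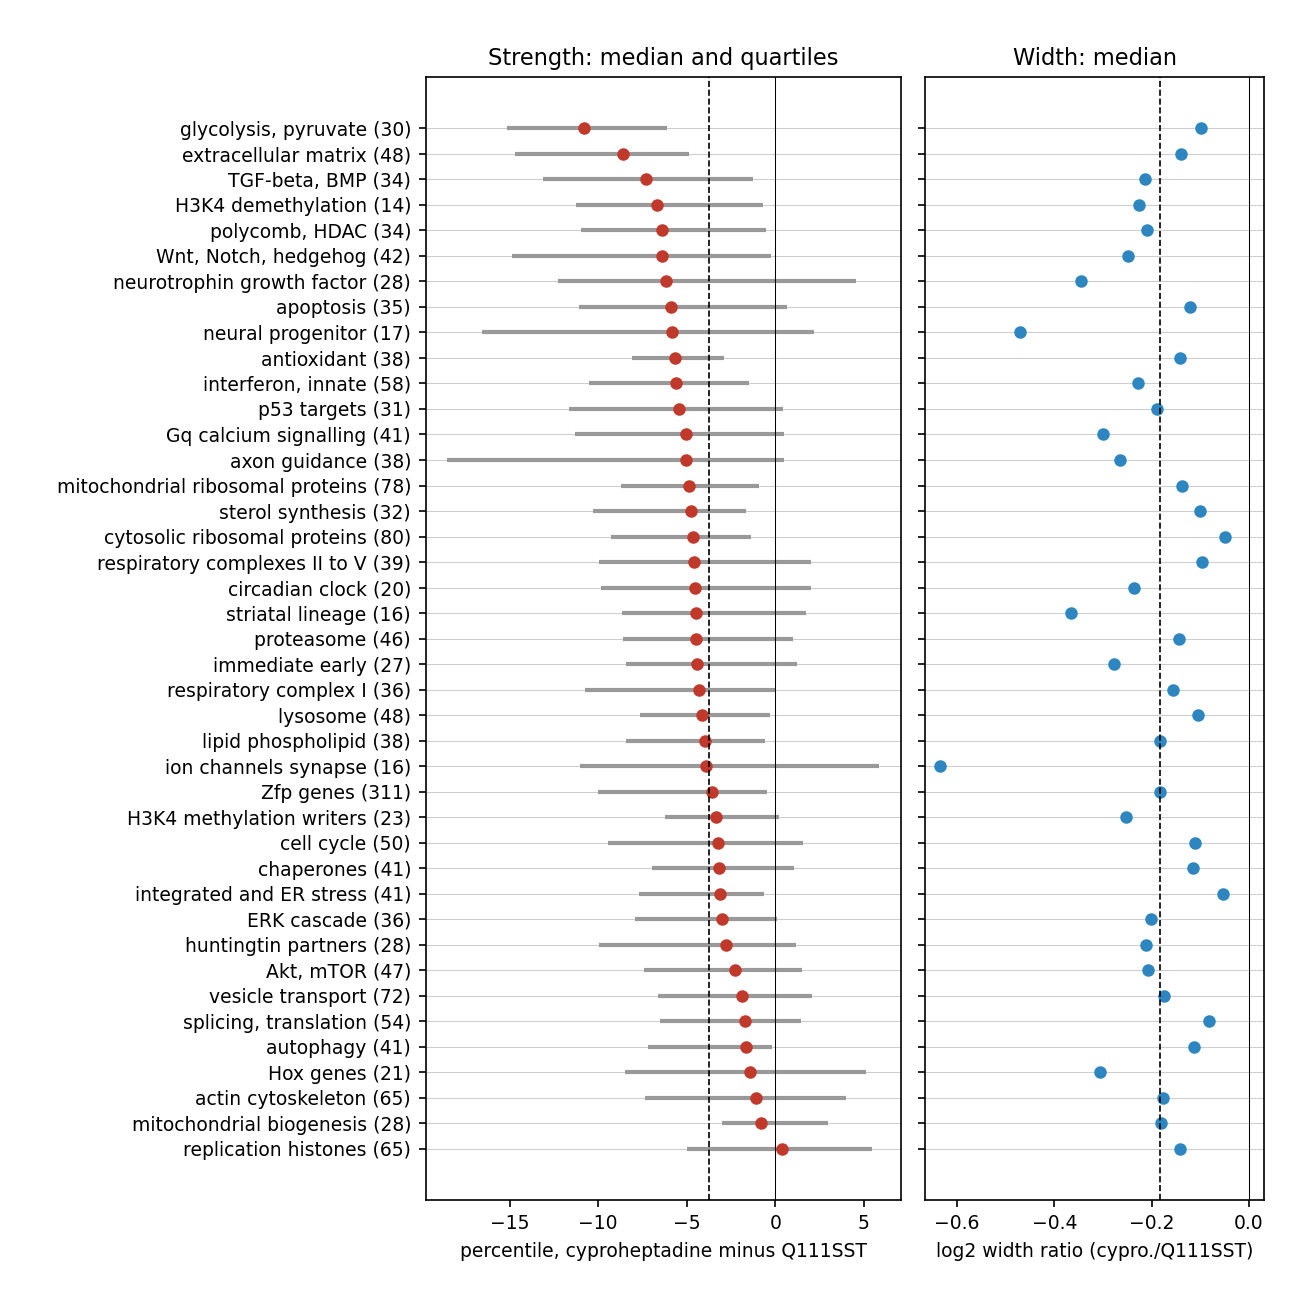
Gene lists with at least 10 promoters marked in both lists (number in brackets): strength as percentile difference, cyproheptadine minus Q111SST, with the median as a point and the quartiles as a bar (left), and median log2 width ratio (right); dashed lines are the medians of all promoters, -3.76 points and -0.18. Medians run from -10.8 points for glycolysis to 0.36 for replication histones, and ion channel and synapse genes have the lowest median width.

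Glycolysis and pyruvate genes were lower in rank with cyproheptadine. Of 31 listed genes, 30 were marked in both lists, and Aldoc was marked in Q111SST only. The median difference was -10.8 points (-14.9 to -7.44), 18 of 30 were lower by at least 10 points (60%) and 1 was higher. With lists of equal size the median was -4.87, and less the median of promoters of like strength in Q111SST it was -5.60. On that last measure 10 of 30 were lower and 4 higher by at least 10 points, against 1656 and 1161 of all 11857 promoters. Glycolysis breaks glucose down to pyruvate, which lactate dehydrogenase turns into lactate and pyruvate dehydrogenase passes to mitochondria.

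Ldhb, a lactate dehydrogenase subunit, was at 60.2 in Q111SST and 20.2 with cyproheptadine, with 71.5 in Q7SST, 51.2 with loxapine, 46.1 with DKI and 58.8 with meclizine. Cyproheptadine was the lowest of the 6 lists, and the peak over its start at chr6:142507806-142508248 was 443 bp wide against 791 bp. Aldoa, the main aldolase, was at 71.5 and 49.6, with 73.8 in Q7SST, 60.8 with loxapine, 46.1 with DKI and 63.1 with meclizine. Ldha was at 80.7 and 65.8, with 71.5, 72.2, 69.8 and 73.7 in Q7SST, loxapine, DKI and meclizine. All 4 other lists lay between Q111SST and cyproheptadine at Ldha. Pfkfb3, Pfkfb4 and Pfkfb2 set the level of fructose 2,6-bisphosphate, an activator of glycolysis. They stood at 74.7, 71.5 and 68.0 in Q111SST and at 55.1, 49.6 and 49.6 with cyproheptadine. Pdha1 and Pdhb, subunits of pyruvate dehydrogenase, were at 72.4 and 91.6 in Q111SST against 53.4 and 74.9. Eno1 was at 78.3 and 63.1, and the glucose transporter gene Slc2a1 at 83.4 and 72.6.

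Few members were higher. Pkm, pyruvate kinase, was at 59.0 and 69.7, and it was the only member higher by 10 points. The lactate transporter gene Slc16a1 was at 89.8 and 99.2, Gapdh at 67.1 and 73.8 and Gpi1 at 66.6 and 72.1. At Slc16a1 a peak of 2887 bp in Q111SST was covered by 2 peaks of 1524 bp in all with cyproheptadine, and at Gpi1 the width was 626 bp against 1034 bp. So 3 of these 4 were narrower by more than the median promoter, and Gapdh with 3069 bp against 3261 bp was not.

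At the glycolysis promoters the median log2 width ratio was -0.10, with an interval of -0.184 to 0.011 that holds the -0.183 of all promoters. Of the 30, 11 were wider at all (36.7% against 12.2%). Promoters of cytosolic ribosomal protein and stress response genes, described below, had median log2 ratios of -0.048 and -0.053. Pdhb was 1989 bp wide in Q111SST and 2336 bp with cyproheptadine, Slc2a1 1573 and 1857 bp, Eno1 3811 and 4180 bp, and Ldha 2319 and 2420 bp. The same median strength difference from Q111SST was -2.50 points in Q7SST, -4.31 with loxapine, -8.30 with DKI and -1.35 with meclizine.

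**Figure D4:**
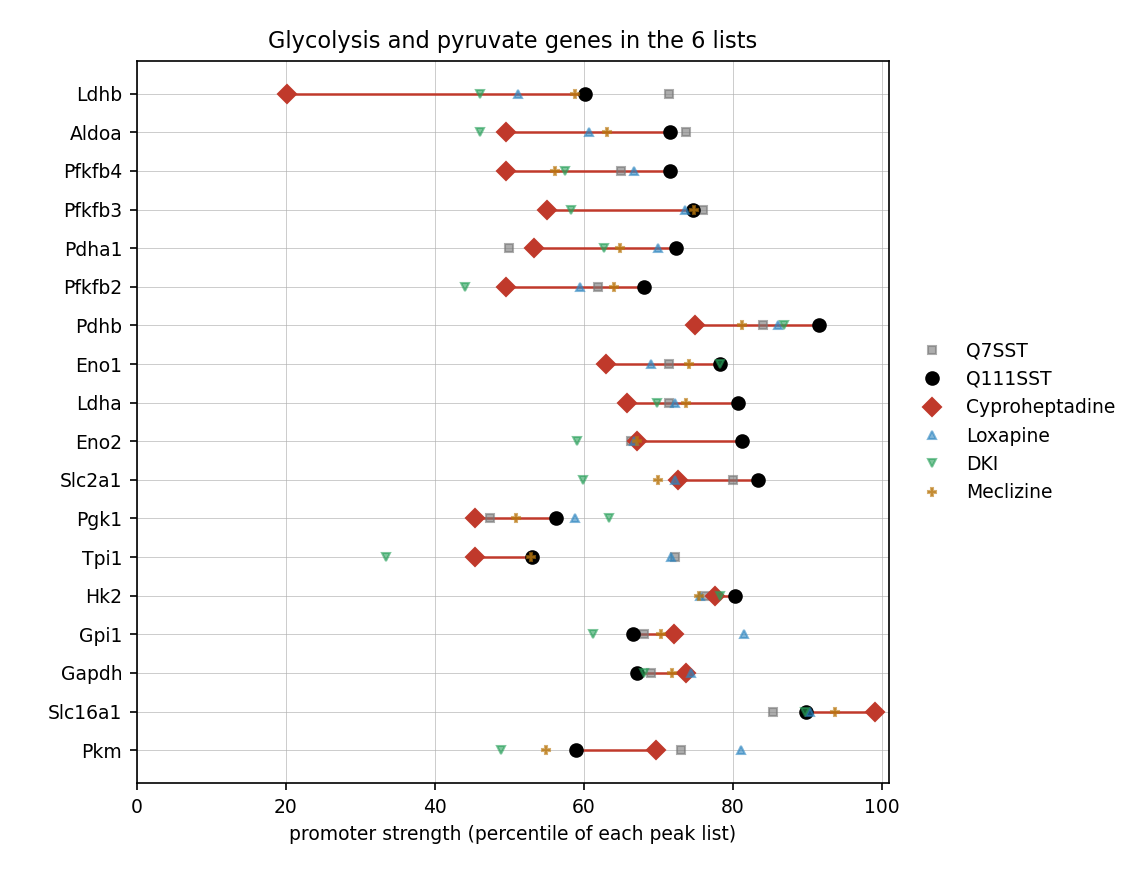
Promoter strength (x axis, percentile of each list) of 18 glycolysis and pyruvate genes (y axis) in the 6 lists; black circles are Q111SST, red diamonds cyproheptadine and the red line joins them. Red lies left of black at 14 genes and right of it at Gpi1, Gapdh, Slc16a1 and Pkm.

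The promoters of Ldha and Pfkfb3 are shown because they hold hypoxia response cores, the letters ACGTG on either strand, which are part of sites bound by hypoxia-inducible factors. The windows run from 250 bases before to 50 after the RefSeq start on GRCm38.p6, 5′ to 3′ on the gene's strand, at chr7:46845554-46845853 (+) for Ldha and at chr2:11502041-11502340 (-) for Pfkfb3. Capitals mark the cores, and 2 cores share the letters CACGTG where they overlap, which is also an E-box.
Ldha: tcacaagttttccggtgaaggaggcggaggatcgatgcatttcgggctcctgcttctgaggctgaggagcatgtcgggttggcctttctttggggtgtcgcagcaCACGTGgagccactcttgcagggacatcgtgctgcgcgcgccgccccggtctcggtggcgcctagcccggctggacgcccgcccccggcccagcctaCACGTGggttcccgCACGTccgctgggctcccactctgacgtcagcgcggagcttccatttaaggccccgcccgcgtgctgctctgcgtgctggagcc
Pfkfb3: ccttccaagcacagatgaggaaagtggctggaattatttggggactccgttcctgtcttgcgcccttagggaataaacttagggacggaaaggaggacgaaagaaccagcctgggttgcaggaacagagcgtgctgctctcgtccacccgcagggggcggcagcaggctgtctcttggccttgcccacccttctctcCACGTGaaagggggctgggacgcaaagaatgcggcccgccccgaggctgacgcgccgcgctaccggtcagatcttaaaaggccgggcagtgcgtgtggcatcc
The window of Ldha held 5 cores and lay wholly in the peak of both lists. The window of Pfkfb3 held 2, and the strongest peak covered 103 of its 300 bases in Q111SST and all 300 with cyproheptadine. Of 30 glycolysis windows, 53.3% held a core (36.1 to 69.8%), against 26.2% of the windows of promoters marked in both lists and 19.6% of all 27025 windows. Among promoters lower by at least 10 points, 23.9% held one. A match is a description of letters and not evidence of binding.

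Promoters of the integrated stress response and of endoplasmic reticulum stress were as low in rank as all promoters but kept their width. All 41 listed genes were marked in both lists, with a median of -3.10 points. By at least 10 points, 9 were lower (22.0%, against 26.1% over all promoters) and 1 was higher. The median log2 width ratio was -0.05, 16 of 41 were wider at all (39.0%, against 12.2%), and 2 of the 52 promoters wider by at least 1.5 times were in the list. Those were Chac1 and Slc7a11, both targets of the stress factor Atf4.

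Chac1 encodes an enzyme that degrades glutathione. Its percentile was 85.9 in Q111SST and 41.8 with cyproheptadine, with 69.9 in Q7SST, 63.9 with loxapine, 40.8 with DKI and 52.9 with meclizine. Its width was 1167 bp in Q111SST, 2330 bp with cyproheptadine, 1970 bp in Q7SST, 1984 bp with loxapine, 1851 bp with DKI and 2217 bp with meclizine. Q111SST had the highest rank and the narrowest peak of the 6 lists. The peak ran over chr2:119350648-119351814 in Q111SST and over chr2:119350546-119352875 with cyproheptadine, so that it reached 102 bp further upstream and 1061 bp further downstream, with 1203 bp of intron against 178 bp.

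Slc7a11, the cystine transporter that supplies glutathione synthesis, was at 80.1 and 64.5. Its width was 972 bp in Q111SST, 2084 bp with cyproheptadine, 1006 bp in Q7SST, 792 bp with loxapine, 847 bp with DKI and 2470 bp with meclizine. Here cyproheptadine and meclizine stood above the other 4 lists. The peak with cyproheptadine at chr3:50441957-50444040 held 1028 bp of intron, and the one in Q111SST held none.

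Both promoters are shown because they hold the letters TGATGNAA on either strand, a C/EBP-ATF composite site of the kind that Atf4 binds, in capitals. The windows are at chr2:119350992-119351291 (+) for Chac1 and chr3:50443564-50443863 (-) for Slc7a11, on the same build and in the same direction as above.
Chac1: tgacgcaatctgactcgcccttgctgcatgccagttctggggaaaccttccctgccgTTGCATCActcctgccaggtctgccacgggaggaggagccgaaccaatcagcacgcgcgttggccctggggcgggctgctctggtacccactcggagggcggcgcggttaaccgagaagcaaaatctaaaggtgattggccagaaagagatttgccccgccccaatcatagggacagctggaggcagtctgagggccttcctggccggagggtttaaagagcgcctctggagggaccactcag
Slc7a11: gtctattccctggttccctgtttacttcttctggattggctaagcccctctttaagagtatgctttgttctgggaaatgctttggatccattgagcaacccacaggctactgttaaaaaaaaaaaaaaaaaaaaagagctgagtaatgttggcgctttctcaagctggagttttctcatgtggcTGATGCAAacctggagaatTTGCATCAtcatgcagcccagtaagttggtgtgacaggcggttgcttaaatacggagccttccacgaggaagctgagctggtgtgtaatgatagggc
Chac1 held 1 site and Slc7a11 held 2, and both windows lay wholly within the peaks of both lists. The motif was in 13.9% of the 36 windows of the stress list (6.08 to 28.7%), in 2.05% of those of promoters marked in both lists and in 4.06% of all windows.

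Other stress genes with wider promoters were Atf5 (2719 bp in Q111SST and 3806 bp with cyproheptadine), Hspa5 (2792 and 3311 bp) and Ppp1r15a (1861 and 2271 bp). Atf5 is a transcription factor of the stress response, Hspa5 the main chaperone of the endoplasmic reticulum and Ppp1r15a a phosphatase subunit that ends the translational block. Their percentiles were lower, at 72.8 and 61.7 for Atf5, 80.3 and 69.7 for Hspa5 and 75.5 and 67.8 for Ppp1r15a. At Atf5 the other compounds were alike in width, with 3888 bp for loxapine, 3841 bp for DKI and 3912 bp for meclizine, while Q7SST had 3168 bp. Ddit3, which encodes CHOP, was at 69.3 and 56.9, the sensor gene Ern1 at 86.2 and 70.3 and the mTOR inhibitor gene Ddit4 at 70.2 and 53.4. Ppp1r15b, the constitutive partner of Ppp1r15a, went the other way, at 82.3 and 97.7 with 496 bp against 826 bp. Q111SST was its lowest list, with 94.7 in Q7SST, 96.9 with loxapine, 98.7 with DKI and 92.2 with meclizine. Asns and Trib3, further Atf4 targets, stood at 84.3 and 85.3 and at 79.4 and 79.1.

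Sterol promoters also kept more of their width than all promoters. Of 32 marked in both lists the median was -4.73 points, 9 were lower by at least 10 points (28.1%), none was higher, and 8 were wider at all (25%). Insig1, which holds the sterol sensor in the endoplasmic reticulum, was 2981 and 3666 bp wide and at 82.3 and 67.8. Abca1, a cholesterol exporter, was at 79.0 and 61.7. The factor gene Srebf2 was at 97.2 and 99.02 with 1409 bp against 2720 bp.

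**Figure D5:**
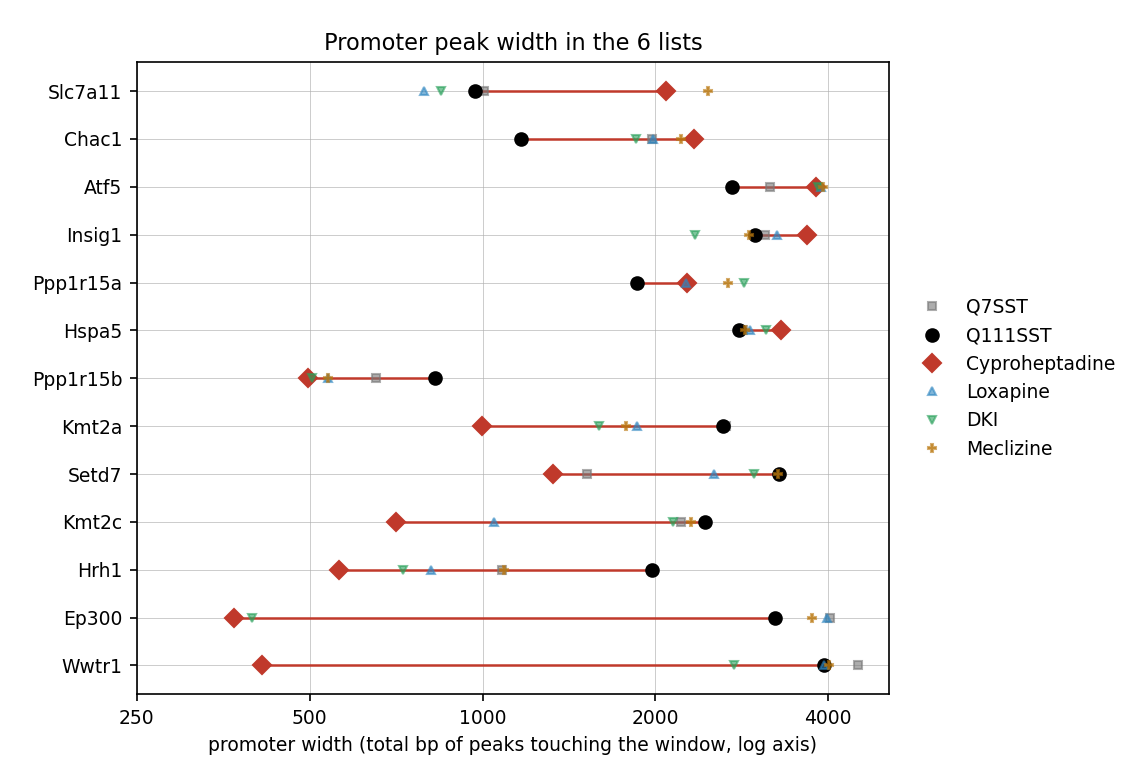
Promoter width (x axis, bp, log scale) of 13 named genes (y axis) in the 6 lists; black circles are Q111SST, red diamonds cyproheptadine and the red line joins them. Width is larger with cyproheptadine at the stress and sterol genes down to Hspa5 and smaller from Ppp1r15b to Wwtr1; Q111SST is the narrowest of the 6 lists at Chac1, Atf5 and Hspa5.

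Extracellular matrix and mesenchymal promoters were lower in rank, with a median log2 width ratio of -0.14. Of 48 marked in both lists, 21 were lower by at least 10 points (43.8%) and none was higher, with a median of -8.61 points and of -3.47 with lists of equal size. Less the median of promoters of like strength it was -2.35. Against the same Q111SST list the median of these genes was -5.86 points in Q7SST and -4.15 with loxapine. It was -11.6 with DKI and -2.13 with meclizine, and each of these medians was below that of all promoters in the same comparison. Col3a1, a fibrillar collagen gene, was at 87.8 in Q111SST and 64.5 with cyproheptadine, with 74.9 in Q7SST, 88.5 with loxapine, 66.8 with DKI and 80.3 with meclizine. Col6a2 was at 72.8 and 39.2, Col6a3 at 69.8 and 44.3, and Thbs2, a thrombospondin that limits vessel growth, at 64.7 and 25.6. Col1a1 and Fn1 differed by less, at 75.5 and 70.9 and at 73.2 and 67.8. Twist1, a mesenchymal factor, had a percentile of 79.4 and 39.2 within the window, but a peak with cyproheptadine at chr12:33958728-33960619, just outside it, lay over the strongest Q111SST peak at percentile 76.5.

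TGF-beta and BMP genes had a median of -7.28 points, but of -1.91 with lists of equal size and of -0.83 beside promoters of like strength. Of 34 genes, 13 were lower (38.2%) and 3 higher by at least 10 points. Inhba, an activin subunit, was at 56.9 in Q111SST and 14.4 with cyproheptadine, with 36.5 in Q7SST, 35.8 with loxapine, 21.8 with DKI and 30.3 with meclizine. The higher members were Bmp1 (53.1 and 72.6), Acvr2b (62.5 and 81.8) and Ltbp1 (83.2 and 97.1). Bmp1, a procollagen protease, was 838 bp wide against 2966 bp, and Acvr2b, an activin receptor, 990 bp against 2016 bp.

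Genes of the Wnt, Notch and hedgehog pathways, which pattern developing tissue, were described as a list, beside 26.1% of all promoters lower and 3.44% higher by at least 10 points. The list had a median of -6.37 points over 42 promoters, with 17 lower (40.5%) and 4 higher (9.52%) by at least 10 points. Of the 47 marked in Q111SST 5 were lost, against 5.65% of all promoters, and losses were not matched for strength. Equal-sized lists gave a median of -2.20, and beside promoters of like strength 8 were lower and 5 higher. Among the lower promoters were nuclear effectors and a feedback gene of Wnt signalling, namely Tcf7 (56.2 and 25.6), Tcf7l1 (72.4 and 50.6), Lef1 (53.1 and 35.0) and Axin2 (77.9 and 62.4). Of the 4 higher promoters, 3 were Wnt receptor genes, Fzd6 (72.0 and 84.6), Fzd1 (81.3 and 92.5) and Fzd2 (86.5 and 96.6), and the other was the Notch target Hey1 (54.7 and 77.1). Notch3 was at 70.2 and 23.9, with 74.1 in Q7SST, 22.7 with loxapine, 70.3 with meclizine and no peak with DKI.

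Growth factors and axon guidance molecules act on neighbouring cells and on growing nerve fibres. Of 28 growth factor genes, 10 were lower (35.7%) and 5 higher by at least 10 points (17.9%), and of 38 guidance genes, 16 and 4. The medians of both lists were -6.19 and -5.02 points, and -1.05 and 0.21 with lists of equal size. Beside promoters of like strength 5 growth factor genes were lower and 8 higher, and 9 and 9 of the guidance genes, against 1656 and 1161 of all 11857 promoters. Of promoters marked in Q111SST, 3 of 31 in the growth factor list and 10 of 48 in the guidance list were lost, against 5.65% of all promoters. Losses were not matched for strength here, and they were 43.7 to 88.8% in the classes of all promoters below percentile 40 in Q111SST. The lowest were Sort1, a receptor that binds neurotrophin precursors, at 68.0 and 33.5 with 478 bp against 1554 bp, and Plxna3, a semaphorin receptor, at 62.5 and 29.0 with 1362 bp against 2027 bp. Among the higher ones, Vegfa, the main angiogenic factor, was at 49.9 and 73.2 and was 1582 bp wide against 3048 bp. Bdnf, a neurotrophin that supports striatal neurons, was at 65.2 and 79.1 (6664 and 5172 bp), with 69.9 in Q7SST, 80.1 with loxapine, 71.0 with DKI and 62.6 with meclizine. Ret, the receptor for the GDNF family, was at 38.1 and 65.8 (1122 and 1044 bp), and no other list was above 45.5. Unc5b, a netrin receptor, was at 75.1 and 97.01 with 528 bp against 1869 bp.

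Genes of the enzymes that write the mark differed in width by an amount that depended on which peaks were counted. Of 23 writer genes 7 were narrower by at least 1.5 times (30.4%, against 15.6% of all promoters) and none was wider at all, with a median of -3.36 points in strength. Their median log2 width ratio was -0.25 against -0.18 for all promoters, but -0.15 against -0.15 with a peak over the start and -0.18 against -0.17 with the strongest peak alone. Kmt2a, which encodes MLL1, was 2627 bp wide in Q111SST and 996 bp with cyproheptadine, with 2650 bp in Q7SST, 1856 bp with loxapine, 1598 bp with DKI and 1781 bp with meclizine. Kmt2c was 2440 and 708 bp wide, at percentiles 79.7 and 80.9. At both genes 2 peaks touched the window in Q111SST and 1 with cyproheptadine, and the strongest peaks were 1509 and 996 bp wide at Kmt2a and 1116 and 708 bp at Kmt2c. Men1 and Cxxc1, subunits of MLL and Set1 complexes, were at 78.3 and 60.2 and at 87.3 and 71.5.

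Setd7, a lysine methyltransferase that can methylate histone H3, was at 81.3 and 67.1 with 3279 and 1327 bp. Its width was 1523 bp in Q7SST, 2533 bp with loxapine, 2965 bp with DKI and 3264 bp with meclizine. The single Q111SST peak at chr3:51558825-51562103 was split in 2 with cyproheptadine, one over the start at chr3:51560733-51562059 and one of 761 bp inside the gene at chr3:51558929-51559689. The inner one had a percentile of 97.8 but lay outside the window of 1 kb. In all, 651 Q111SST peaks (1.61%, median width 2776 bp) were overlapped by 2 or more cyproheptadine peaks, against 41 (0.12%) in the other direction.

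Of 14 genes for removal of the mark, 6 were lower by at least 10 points and 1 higher, and beside promoters of like strength 3 were lower and 3 higher. In width, 2 of the 14 were narrower by at least 1.5 times (14.3%). Sin3b, a co-repressor, was at 72.4 in Q111SST and 33.5 with cyproheptadine, with 61.9 in Q7SST, 54.4 with loxapine, 40.8 with DKI and 56.7 with meclizine. Kdm1a, which removes lower methylation states of the same lysine, was at 94.6 and 80.0 and Hdac1 at 90.7 and 75.4. Kdm5a, which removes the mark itself, was at 81.3 and 91.1 with 1063 bp against 3261 bp. Polycomb and histone deacetylase genes had a median of -6.38 points, with 12 of 34 lower (35.3%), none higher and none wider at all. In lists of equal size the median was -3.30, and beside promoters of like strength -2.24, with 4 lower and 4 higher. Phf19 was at 78.3 and 57.7, Hdac11 at 68.5 and 47.6 and Bmi1 at 68.9 and 54.2, whereas Suz12 was at 99.3 in both lists.

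Autophagy promoters were strong in both lists. All 41 genes were marked in both, with a median percentile of 89.6 and 86.1 and a median difference of -1.63 points (-5.76 to -0.53), an interval that holds the median of all promoters. By at least 10 points, 9 were lower (22.0%) and none was higher. Less the median of promoters of like strength it was 0.78, with 4 lower and 4 higher, against 1656 and 1161 of all 11857 promoters. Atg7, the activating enzyme of both conjugation systems, was at 98.4 in Q111SST and 85.0 with cyproheptadine, with 86.8 in Q7SST, 90.4 with loxapine, 89.1 with DKI and 90.9 with meclizine. Atg2a, a lipid transfer protein, was at 88.4 and 72.1. Atg13, a subunit of the initiating kinase complex, was at 94.9 and 84.3 and was 2715 bp wide against 1939 bp. Sqstm1, the cargo receptor p62, was at 91.1 and 97.7, with 90.03 in Q7SST, 97.3 with loxapine, 95.3 with DKI and 89.2 with meclizine. Atg3, a conjugating enzyme, was at 85.7 and 93.9.

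Mitochondrial promoters differed between lists of genes. Genes of respiratory complex I had a median of -4.30 points, with 10 of 36 lower by at least 10 points (27.8%) and none higher. Ndufb10, an accessory subunit, was at 71.5 in Q111SST and 44.3 with cyproheptadine, with 68.1 in Q7SST, 61.4 with loxapine, 44.1 with DKI and 64.9 with meclizine. Ndufs5 was at 90.04 and 68.4 and Ndufc2 at 97.4 and 81.3, and neither was narrower (1716 against 1667 bp and 1352 against 1248 bp). Genes of mitochondrial biogenesis and dynamics had a median of -0.83 (0.76 with lists of equal size), with 1 of 28 lower (3.57%) and 2 higher. The 2 were import genes, Timm23 at 81.3 and 96.2 and Tomm40 at 80.7 and 92.9, and the lower one was Pink1, a kinase of mitochondrial quality control, at 75.1 and 60.2. Genes of cytosolic ribosomal proteins had a median of -4.63 and 29 of 80 were wider at all (36.2%). Chaperone genes and genes of splicing and translation had fewer promoters lower by at least 10 points than all promoters, with 4 of 41 (9.76%) and 5 of 54 (9.26%). The 4 chaperone genes were Bag5, Hsp90aa1, Cryab and Hsp90ab1.

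Replication-dependent histone genes had the highest median of the lists with at least 10 promoters, at 0.36 points and at 7.78 with lists of equal size. The median was -0.74 among peaks with a score of at least 20 and -0.22 with a peak over the start. The 65 genes lie in clusters and shared 38 peaks, so they count as fewer observations. By at least 10 points, 9 were higher (13.8%) and 6 lower (9.23%). Hist1h2ap and Hist1h2br, which share a peak, were at 73.2 and 91.4, and Hist1h3i was at 56.9 and 75.4. Hist3h2ba went the other way, at 71.5 and 20.2, with 90.9 in Q7SST, 67.4 with loxapine, 34.8 with DKI and 59.9 with meclizine. Near-identical histone genes can share reads, and how such reads were counted is not given in the sources used here.

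Hox genes, which carry positional identity, were mixed. Of 21 promoters, 5 were lower and 5 higher by at least 10 points. Hoxa4 was at 69.8 and 30.4 and Hoxd3 at 62.5 and 30.4. Hoxc6 was at 24.2 and 45.4 and Hoxa2 at 36.8 and 54.2, with 50.0 and 50.8 in Q7SST. The widest ratio of all promoters of at least 2000 bp in either list was at Hoxb8, with 235 bp in Q111SST and 3220 bp with cyproheptadine. That peak, at chr11:96283720-96286939, is shared with Hoxb7, where the width was 2237 bp in Q111SST. In Q111SST the larger peak therefore lay outside the Hoxb8 window.

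The next widest ratios were at Pax9, Wee1, Slc7a11, Zfc3h1, Chac1, Masp1 and Hoxa2. Pax9 was 1451 bp wide in Q111SST and 4426 bp with cyproheptadine, with 4271 bp for DKI and 4524 bp for meclizine. Wee1, the kinase that holds cells before mitosis, was 730 bp wide in Q111SST and 2115 bp with cyproheptadine. It was 628 bp in Q7SST, 562 bp with loxapine, 543 bp with DKI and 633 bp with meclizine. A second peak at chr7:110122977-110124591 entered the window with cyproheptadine, and with a window of 5 kb its log2 width ratio was -0.07. The wider window also lowered the log2 ratio at Hoxb8 from 3.78 to 0.33, at Pax9 from 1.61 to 0.41, at Zfc3h1 from 1.02 to 0.10 and at Hoxa2 from 0.74 to 0.17. It left the ratios of Slc7a11, Chac1 and Masp1 as they were.

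The 8 narrowest ratios were at Ifrd1, B3gnt2, Setbp1, Dhx58, Wwtr1, Sfpq, Ep300 and Gal3st1, with 196 to 413 bp with cyproheptadine. Many rested on the edge of the window, since with a window of 5 kb the log2 ratio was -0.03 at B3gnt2, -0.09 at Sfpq, -0.22 at Ifrd1 and -0.41 at Ep300, against -3.96, -3.18, -4.12 and -3.13 within 1 kb. It was smaller in size also at Dhx58 (-3.36 and -1.37 with 5 kb), Wwtr1 (-3.25 and -1.22) and Gal3st1 (-3.13 and -2.44), and Setbp1 alone kept its ratio of -3.68. Wwtr1, which encodes the Hippo effector TAZ, was 3934 bp wide in Q111SST and 413 bp with cyproheptadine, and 2739 to 4506 bp in the other lists. Its Q111SST peak was covered by 3 separate peaks with cyproheptadine. Ep300, the acetyltransferase p300, was at 92.6 with 3229 bp and at 55.1 with 369 bp, but a peak of 2066 bp at percentile 93.7 lay just beyond the window over the strongest Q111SST peak. Ifrd1 was alike, with 3737 and 215 bp and a peak of 2993 bp beyond the window. Over all 1849 promoters narrower by at least 1.5 times, peaks over the strongest Q111SST peak were narrower by less than that at 238 (12.9%). Of the 3092 promoters lower by at least 10 points, 30 (0.97%) had a cyproheptadine peak over the strongest Q111SST peak that was lower by less than 10 points.

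The receptors that cyproheptadine blocks were mostly unmarked in these cells. Of 11 histamine and muscarinic receptor genes only Hrh1, the histamine H1 receptor, was marked in both lists. Its percentile was 84.0 in Q111SST, 93.4 with cyproheptadine, 67.2 in Q7SST, 87.3 with loxapine, 91.6 with DKI and 81.2 with meclizine. Width was 1974 bp in Q111SST and 562 bp with cyproheptadine, with 1080, 814, 728 and 1092 bp in the other lists in the same order. The peak with cyproheptadine at chr6:114403879-114404440 lay in an intron for 543 bp and not over the gene's first start. Of 17 genes for serotonin receptors, synthesis and transport, Htr1b (20.6 and 12.3) and the transporter gene Slc6a4 (98.2 and 95.6) were marked in both, and neither Htr2a, Htr2b nor Htr2c was. Htr2a, which cyproheptadine also blocks, was at 74.9 in Q7SST and 17.1 with meclizine and was marked in no other list.

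Htt itself was at 79.4 in Q111SST and 69.7 with cyproheptadine, with 74.5 in Q7SST, 79.0 with loxapine, 61.3 with DKI and 90.3 with meclizine. Its peak at chr5:34761063-34761886 was 824 bp wide against 1048 bp and covered the start in both lists. Among genes of huntingtin partners and repeat instability, 7 of 28 were lower by at least 10 points (25%). Fan1, a nuclease, was at 95.2 and 83.9, while Msh3 was at 92.04 and 93.2. Tbp, the TATA-binding protein, was higher at 52.3 and 79.1 with 222 bp against 1279 bp. Of 29 genes of striatal neurons 11 were marked in Q111SST and 5 of these were lost, against 5.65% of all promoters, and against 43.7 to 88.8% in the classes of promoters below percentile 40 in Q111SST. Of the 6, 4 were lower by at least 10 points (2 lower and 1 higher beside promoters of like strength), among them Penk (24.2 and 3.8), the enkephalin precursor, and Tubb3 (33.9 and 12.3), a neuronal tubulin. Of 17 neural progenitor genes 7 were lower by at least 10 points (41.2%), among them Sox2, a factor of neural stem cells, at 65.6 and 35.0. Beside promoters of like strength the median of these 17 was 0.00, with 5 lower and 5 higher. The Sox2 peak was 950 bp wide and covered the start with cyproheptadine, and it was 237 bp wide and did not in Q111SST.

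Interferon and innate immune promoters were lower in 20 of 58 cases (34.5%) and higher in 2, with a median of -5.62 points. With lists of equal size the median was -2.98, and beside promoters of like strength -2.16, with 7 lower and 5 higher. Oas1a was at 90.9 and 67.1, the signalling factor gene Irf5 at 44.1 and 10.1, and Rsad2, an antiviral enzyme gene, at 51.5 and 20.2. Against these, H2-D1, a class I antigen-presenting molecule, was at 62.5 and 79.1, and Oasl1 was described above. Irf9, which relays the interferon signal, was at 94.2 and 98.1.

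Of the 12567 promoters marked in Q111SST, 710 were lost (5.65%), and of the 11918 marked with cyproheptadine, 61 were gained (0.512%). Lost promoters were weak, with a median percentile of 25.9 and a median width of 592 bp in Q111SST. Only 98 were above percentile 50, and at 36 of these a cyproheptadine peak lay within 5 kb. Gained promoters had a median percentile of 7.94 and a width of 432 bp. The strongest lost promoters with no cyproheptadine peak within 5 kb were Vmn2r60 (79.0), Prkag3 (74.3), Slc2a12 (71.5), Nrxn2 (69.8), Sec31b (69.8) and Gm4353 (69.3). Nrxn2, a presynaptic adhesion gene, had a peak of 555 bp over its start at chr19:6418316-6418870 in Q111SST and was marked in each of the other 4 lists, at 86.8 in Q7SST, 80.1 with loxapine, 43.0 with DKI and 66.2 with meclizine. Prkag3, a subunit of the energy sensor AMPK, and Slc2a12, a glucose transporter gene, were also marked in all 4. Among the strongest gains were Bhlhe22 (47.6), Il1rl2 (39.2), Ifi202b (35.0), Gm13306 and Il20ra (32.0 each). Ifi202b was marked in no other list.

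Families of genes that share a symbol stem were ranked by their median difference among 140 families with at least 10 promoters. The lowest were Tnfrsf (-15.6 points, 8 of 11 lower by at least 10), Rgs (-12.7, 6 of 10), Il (-11.6, 15 of 26), Btbd (-10.7, 7 of 11) and Col (-10.6, 13 of 23). In lists of equal size their medians were -11.1, -8.34, -6.08, -5.26 and -3.66, and the order changed, with Kdm at -6.53 before Il and with Col no longer among the lowest 5. The 5 families encode receptors of the tumour necrosis factor family, regulators of G protein signalling, interleukins and their receptors, BTB domain proteins and collagens. The highest were Hist (0.36), Ube (-0.22), Dcaf (-0.25), Ppm (-0.33) and Ptpn (-0.34), of which Ube and Dcaf belong to ubiquitin conjugation and ligases, and Ppm and Ptpn are phosphatases. By width the narrowest family was Wnt (-0.49 on the log2 scale), and the widest were Dusp (-0.02), Rpl (-0.04), Atf (-0.05), Eef (-0.05) and Rps (-0.06). Among the widest, Rpl, Rps and Eef make up ribosomes and translation elongation factors.

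Promoters on the X chromosome were lower than those on any of the 19 autosomes. Of 358, 161 were lower by at least 10 points (45.0%), against 18.95 to 31.3% on autosomes. Their median was -8.73 points, with autosomes between -5.00 and -2.31. With lists of equal size it was -4.29 (autosomes -1.70 to -0.35), and beside promoters of like strength -3.69 (-0.64 to 0.74). The X median was also below each autosome in Q7SST at -6.10 (autosomes -2.97 to 2.28), with loxapine at -2.37 (-1.61 to 0.34) and with DKI at -10.01 (-8.93 to -4.08). With meclizine it was -1.07, within the autosomes (-2.26 to -0.98). X-linked promoters were also weaker in Q111SST, with a median percentile of 75.1 (autosomes 77.4 to 85.7), and the part of starting strength beyond that matching was not tested.

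To see what set the cyproheptadine list apart, all 6 lists were cut to 30758 peaks and the 11277 promoters marked in all were compared. Cyproheptadine was above each of the other 5 by at least 10 points at 132 promoters and below each at 135. The same counts were 126 and 55 for Q111SST, 385 and 409 for Q7SST, 67 and 501 for loxapine, 203 and 335 for DKI and 42 and 70 for meclizine. By width, cyproheptadine was narrower than each other list by at least 1.5 times at 247 promoters and wider at 2, Wee1 and Mapkapk3. DKI was narrower than each other list at 311.

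The genes named from this comparison were chosen after their values were seen. Hmga1, a chromatin architectural protein, had a percentile of 81.9 with cyproheptadine in these shortened lists, with the others between 20.2 and 48.4. Acvr2b stood at 80.0 (others 23.4 to 50.7), Gpr37, a Parkin-associated receptor, at 92.7 (42.8 to 64.9) and Bcr at 77.6 (37.4 to 49.2). Below the others were Lrrc2 at 3.90 (45.1 to 80.9), Tnfrsf21, a death receptor, at 8.30 (41.5 to 53.2), and Rubcnl, which takes part in autophagosome maturation, at 47.9 (78 to 95.2). Rragb, a GTPase that couples amino acids to mTORC1, was at 8.30 (36.8 to 63.9). Usp38 was 602 bp wide with cyproheptadine, with the others between 2429 and 3519 bp.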

How the data were processed

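H3K4me3 ChIP-seq of crosslinked, MNase-digested chromatin was read as 50 bp single ends. Per the submitters' processing notes the tools were Trimmomatic 0.36, Bowtie2, SAMtools 1.3 and MACS2 with build mm10; caller options, input control and score scale are not given in the sources used here. The values used are the score that the authors deposited for each peak, and its position. The 6 lists hold no read counts, so depth is unknown.

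Peaks were joined to 54368 start positions of GENCODE vM21 protein-coding transcripts, and no peak ran past the end of any of 21 GRCm38 chromosomes. Percentiles were taken within a list; lists of equal size held the strongest 33721 peaks. Promoters of like strength are the same twentieth of Q111SST percentiles (20 bins). Shares have Wilson intervals and medians binomial order-statistic intervals. Genes were named by fixed rules: the 10 largest rises and 10 largest falls in percentile, the 8 widest and 8 narrowest ratios among promoters of at least 2000 bp, the 6 strongest lost and 6 strongest gained promoters with no peak of the other list within 5 kb, and members of gene lists past 10 points or 1.5 times in width. Some members are not reported here. List members below those sizes were named after their values were seen. Members, lists and motifs were chosen with earlier results of these data known. Motifs were searched on both strands of RefSeq GRCm38.p6 promoter windows. A check of GC content is void, because 78.8% of promoters had such a window. The scripts were tested on the Q111SST list with planted changes of known size in score and width. They ran in Python 3.11.15 with pandas 2.3.3, numpy 2.4.6, matplotlib 3.10.9 and scipy 1.17.1.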

Additional observations from a re-analysis of the deposited data

How the results depend on the processing

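No paired analysis was possible because there was 1 list per condition and no test. The summaries over all promoters, the medians of the main gene lists and the named genes were recomputed, where the setting applies, with lists of equal size, a score of at least 20, a reciprocal overlap of 50%, a peak over the start itself, a window of 5 kb, percentiles among promoters marked in both lists, matching for strength, the strongest peak alone, peaks merged within 500 bp, chromosomes 1 to 19, and, chosen after seeing the data, every transcript of a coding gene. Of the summaries over all promoters, only the median width ratio and the reach differences have a direction, and they kept it where recomputed. The others are counts and shares, which cannot reverse. The autosomes alone left each summary within its limits. Merging says nothing of stability, since the smallest gap between peaks was 773 bp. The reciprocal overlap bears on the shares of peaks found only, the families were recomputed with lists of equal size only, the X chromosome with those and with matching for strength, and the comparison over 6 lists not at all. With lists of equal size 81.3% of Q111SST peaks and 83.1% of cyproheptadine peaks were found, 462 promoters were lost and 100 gained, and 1061 were higher and 1820 lower by at least 10 points. With a score of at least 20 the shares were 72.6% and 92.6%, with 33 gained and 32 wider, and with the reciprocal overlap 57.8% and 69.3%. With a peak over the start 1484 were lost, 95 gained, 189 higher, 25 wider and 891 narrower, and the median log2 width ratio was -0.15. A window of 5 kb gave 171 gained and -0.20, the strongest peak alone 98 wider and -0.17, and every transcript -0.19. Percentiles among promoters marked in both lists gave 2480 higher and 2571 lower, with a glycolysis median of -5.68 points, and matching for strength 1161 higher and 1656 lower. Reversals were seen at Cgref1 (-2.26 points) and Gm13271 (-8.79) and in the width of Wee1 (-0.07) with 5 kb, and in the width of Zfc3h1 (-0.26) with the strongest peak alone. The causes were not tested. Of the medians of gene lists, merging left out, 176 stayed within their interval and 34 moved. Some changed sign: those of Hox, actin and mitochondrial biogenesis genes were 4.76, 1.92 and 0.76 with lists of equal size, autophagy 0.78 when matched for strength, TGF-beta and BMP 0.51 among promoters marked in both lists, and replication histones -0.74 with a score of at least 20. Without replicates or read depth, differences between the lists cannot be told apart from differences between libraries.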
